A study of Mus musculus with 12 samples.

Results

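The immunoglobulin constant region genes encode the parts of an antibody that set its class. The set described here holds 10 genes, of 50600 in the count tables, chosen by name: the heavy chain genes Ighm, Ighg1, Ighg2b, Ighg2c, Ighg3 and Igha, the light chain genes Igkc, Iglc1 and Iglc2, and Jchain, which encodes the joining chain. All 10 were matched by gene symbol in all 12 libraries. Polyadenylated RNA was sequenced from livers of 12 mice in 3 groups of 4: AAV (adeno-associated virus) carrying a Pdx1 gRNA, AAV carrying a non-targeting control gRNA, and PBS. All mice were of the strain Rosa26-LSL-dCas9-p300, which carries a fusion of nuclease-dead Cas9 to the acetyltransferase p300 behind a stop cassette. Which Cre recombinase, if any, removed it is not given in the labels. The AAV.Cbh.gRNA vector was given by tail vein at 1e+12 viral genomes per mouse, PBS mice received none, and injections were at about 8 weeks of age with livers taken 2 weeks later. No label says whether the libraries of a group came from separate litters or days. The p-values reflect variation among these libraries alone and may not cover variation among litters or days.

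B cells first make IgM from Ighm. Class switch recombination then joins the same variable region to a downstream constant gene, which gives IgG, IgA or IgE, and plasma cells secrete the product in bulk. Each antibody pairs its heavy chain with a kappa or a lambda light chain, and the joining chain links IgM or IgA units into polymers. The liver makes little antibody of its own, but it holds B cells and plasma cells, it clears immune complexes through Fc receptors, and it moves polymeric IgA into bile through the receptor encoded by Pigr. Antibodies to the AAV capsid are a known response of mice to the vector; no antibody was measured here.

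Library totals ran from 13531769 to 18063529 counts in Pdx1 gRNA livers, from 16963079 to 22008046 in control gRNA livers and from 11824767 to 17870498 in PBS livers. The 10 genes together took 240 to 862 counts per library with the Pdx1 gRNA, 403 to 1001 with the control gRNA and 104 to 494 with PBS, so all values below rest on few reads. Pdx1, the gene targeted, had 26, 32, 54 and 256 counts in Pdx1 gRNA libraries, against 0, 0, 0 and 2 in control gRNA libraries and 0 in every PBS library. PBS replicates 2 and 3 had 33 and 43 counts of Xist and 1024 and 828 of the Y-linked gene Ddx3y, a male pattern, whereas the other 10 libraries had 10696 to 24067 counts of Xist and at most 3 of Ddx3y. Calls against PBS are therefore given also without those 2 libraries.

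The results turn on Ighg2c and Ighg2b, so their sequences are shown first. Both lie on the minus strand of mouse chromosome 12, among the other heavy chain genes, with the exons of Ighg2c at chr12:113285325-113288932 and those of Ighg2b at chr12:113302965-113307933 (mm10). Ighg2c takes the place of Ighg2a in C57BL/6 and some other strains, and the files list no Ighg2a. The first 120 bases of the first constant exon (CH1), from GENCODE M21 transcripts on GRCm38, read as follows, with capitals at the 13 bases where the pair differ.
Ighg2c, chr12:113288813-113288932: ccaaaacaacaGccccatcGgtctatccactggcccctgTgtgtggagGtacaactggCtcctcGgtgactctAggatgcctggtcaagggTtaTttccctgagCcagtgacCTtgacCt
Ighg2b, chr12:113307814-113307933: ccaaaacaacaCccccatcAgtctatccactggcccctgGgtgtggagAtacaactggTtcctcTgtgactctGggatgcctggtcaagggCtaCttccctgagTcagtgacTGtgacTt
Over the whole CH1 exon the pair were identical at 87.6% of 291 positions, and over the secreted-form coding region at 85.7% of 1009 aligned positions. Of all 50-base windows in the exons of Ighg2c 5.49% also occurred in Ighg2b, and of those of Ighg2b 4.15% occurred in another IgG gene; no 100-base window of either was shared. The bases that separate the genes are thus dense enough for most fragments, although reads from the shared windows could have been split or dropped.

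The IgG genes differ most in the hinge, the flexible exon between the antigen-binding arms and the Fc part. The 4 hinge exons are shown to let the genes be told apart, with capitals at in-frame cysteine codons.
Ighg2c, chr12:113288263-113288325: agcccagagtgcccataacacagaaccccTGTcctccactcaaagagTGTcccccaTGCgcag
Ighg2b, chr12:113307261-113307326: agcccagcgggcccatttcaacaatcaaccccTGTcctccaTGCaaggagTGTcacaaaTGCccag
Ighg1, chr12:113329844-113329882: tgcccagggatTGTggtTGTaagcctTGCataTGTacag
Ighg3, chr12:113360529-113360576: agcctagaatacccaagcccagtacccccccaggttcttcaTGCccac
Ighg2c had 3 such codons over 63 bases, Ighg2b had 4 over 66, Ighg1 had 4 over 39 and Ighg3 had 1 over 48.

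Ighg2c and Ighg2b, the heavy chains of the IgG classes of the mouse that bind activating Fc receptors most strongly, were the 2 members that rose in livers given virus, and both rose with either gRNA. Ighg2c stood at 5.13, 4.05, 1.59 and 1.63 CPM (counts-per-million units, on library sizes scaled by the trimmed mean of M values, TMM) in Pdx1 gRNA livers. It stood at 5.07, 4.07, 2.36 and 1.219 CPM in control gRNA livers, and at 0.180, 0, 0.307 and 1.07 CPM in PBS livers. All 8 virus livers were thus above all 4 PBS livers, and the virus livers lowest for Ighg2c lay close to the highest PBS liver, replicate 4. The log2 fold change over PBS was 2.92 ± 0.76 (SE) with the Pdx1 gRNA and 2.96 ± 0.75 with the control gRNA, with adjusted p of 0.0167 and 0.0108 by edgeR's quasi-likelihood test with Benjamini-Hochberg adjustment over all 15219 genes tested.

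Ighg2b stood at 4.40, 3.39, 1.06 and 2.95 CPM in Pdx1 gRNA livers. In control gRNA livers it stood at 2.28, 4.12, 4.59 and 1.27 CPM, and in PBS livers at 0.480, 0.190, 0.820 and 0.787 CPM. Again no PBS liver reached any virus liver, and replicate 3 of the Pdx1 gRNA group was the lowest of the virus livers. The log2 fold change over PBS was 2.37 ± 0.56 with the Pdx1 gRNA and 2.42 ± 0.55 with the control gRNA, with adjusted p of 0.0107 and 0.00641 by edgeR's quasi-likelihood test. As linear folds of the fit, Ighg2c was 7.57 times and Ighg2b 5.15 times its PBS level with the Pdx1 gRNA, and 7.78 and 5.34 times with the control gRNA.

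These 2 calls are read against a background in which many genes changed: with the Pdx1 gRNA 22.1% of all genes tested were called against PBS, 11.7% as higher and 10.4% as lower, and with the control gRNA 32.1%, 16.3% as higher and 15.8% as lower. Groups that do not overlap, with virus higher, were found for 12.7% of genes tested with the Pdx1 gRNA and 16.5% with the control gRNA, and with virus lower for 8.74% and 12.3%. Of the 10 genes, 7 passed the filter on low counts, and 2 of those 7 rose and 0 fell in each comparison with PBS, which share the same 4 PBS libraries. Ighg2c and Ighg2b passed the filter through the virus groups, since in PBS only 1 library had 10 or more counts of either; with no filter both kept their calls, at log2 fold changes of 2.95 and 3.0 for Ighg2c and 2.41 and 2.47 for Ighg2b with the Pdx1 gRNA and the control gRNA. Without PBS replicates 2 and 3 the log2 fold changes were 2.31 and 2.35 for Ighg2c and 2.21 and 2.25 for Ighg2b (Pdx1 gRNA and control gRNA against PBS). All 4 calls were lost, with adjusted p of 0.104, 0.0797, 0.0697 and 0.0516 by the same test. Without PBS replicate 4 alone the log2 fold changes of Ighg2c were 4.20 and 4.24. In bulk RNA more cells of a type and more RNA per cell cannot be told apart.

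**Figure D1:**
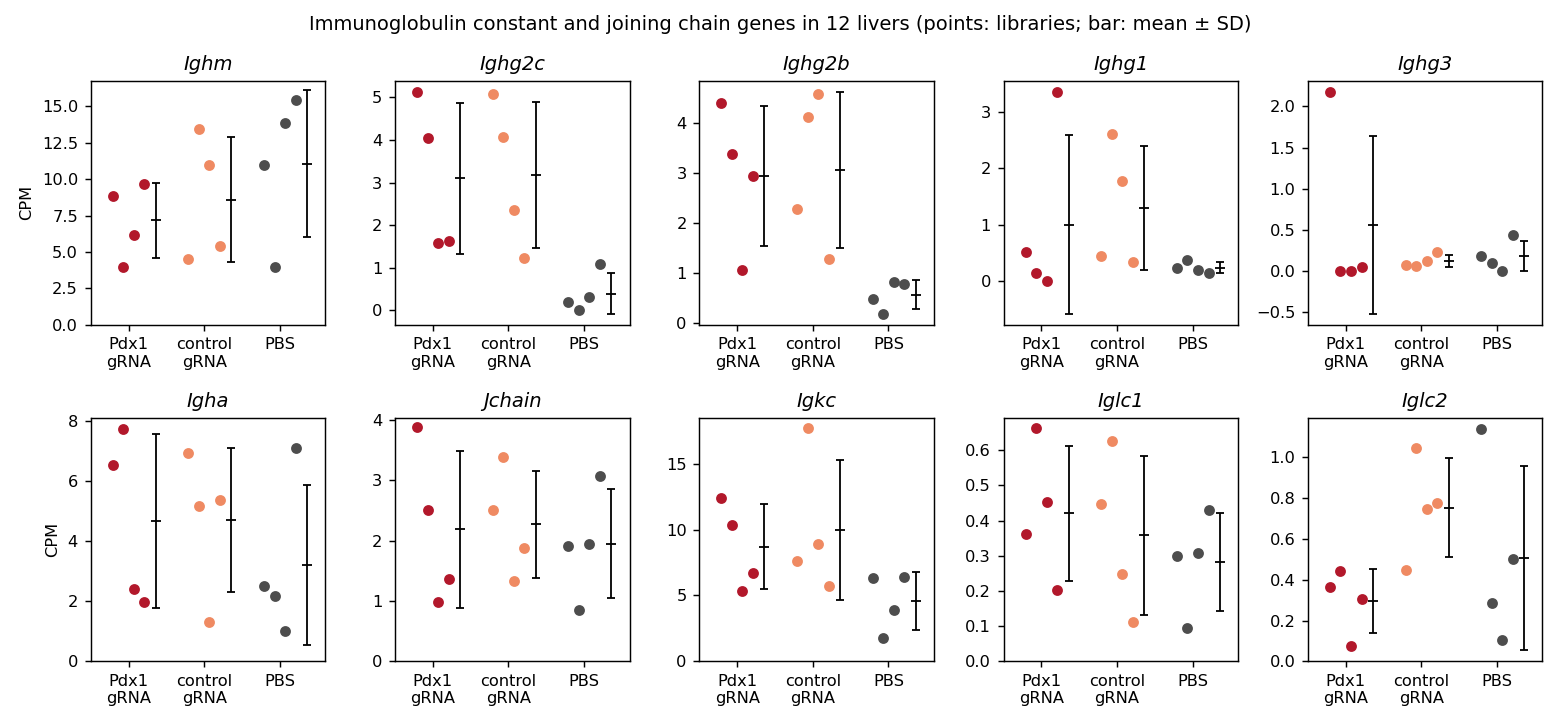
Level of each of the 10 genes (CPM, linear axis) in every library, with Pdx1 gRNA, control gRNA and PBS livers from left to right; points are libraries and the bar beside them is the mean ± SD of 4. The virus livers lie above all PBS livers for Ighg2c and Ighg2b, whereas for the other 8 genes the virus and PBS groups overlap.

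Ighm, the IgM heavy chain that naive B cells carry, was not called in any comparison. It stood at 8.85, 3.98, 6.19 and 9.65 CPM in Pdx1 gRNA livers, at 4.51, 13.5, 10.96 and 5.43 CPM in control gRNA livers, and at 10.97, 3.99, 13.8 and 15.5 CPM in PBS livers. The groups overlap, and PBS holds both the highest livers and one of the lowest, replicate 2. The log2 fold change over PBS was -0.62 ± 0.44 with the Pdx1 gRNA (adjusted p = 0.330, edgeR) and -0.37 ± 0.43 with the control gRNA (adjusted p = 0.552, edgeR), with 95% intervals of -1.48 to 0.24 and -1.220 to 0.48. Ighd, which naive B cells make along with Ighm, ranged over 1.13 to 2.69 CPM with the Pdx1 gRNA, 0.821 to 5.32 with the control gRNA and 0.665 to 3.79 with PBS.

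Ighg1, the IgG heavy chain that in the mouse goes with type 2 help, was uneven among livers of a group and failed the filter. It had 10, 2, 0 and 66 counts in Pdx1 gRNA livers, 12, 50, 43 and 6 in control gRNA livers, and 4, 4, 2 and 2 in PBS livers. One Pdx1 gRNA liver and 2 control gRNA livers carried most of them. In CPM each virus group overlaps with PBS, since control gRNA replicate 4 stood at 0.333 and PBS replicate 2 at 0.380. An exact two-sided permutation test of the CPM over the 70 assignments of 4 and 4 libraries gave p = 0.0571 for the control gRNA against PBS and p = 0.571 for the Pdx1 gRNA against PBS, where the smallest p this design allows is 0.0286; adjusted over the 9 such tests they were 0.514 and 1.

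Ighg3, the IgG class that mice raise mainly to carbohydrate antigens, had 42, 0, 0 and 1 counts in Pdx1 gRNA livers, 2, 1, 3 and 4 in control gRNA livers, and 3, 1, 0 and 6 in PBS livers. Apart from Pdx1 gRNA replicate 1, no library had more than 6. The exact permutation p was 0.971 for the Pdx1 gRNA and 0.657 for the control gRNA against PBS, adjusted to 1 over the 9 tests. Ighe, the IgE heavy chain, had no count in any library, which allows at most 3 counts in each.

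Igha, the heavy chain of IgA, the antibody of mucosal surfaces and bile, stood at 6.52, 7.74, 2.42 and 1.98 CPM in Pdx1 gRNA livers. It stood at 6.94, 5.16, 1.32 and 5.38 CPM in control gRNA livers and at 2.52, 2.19, 1.02 and 7.08 CPM in PBS livers. Each group held livers on both sides of 3 CPM, and the groups overlap throughout. The log2 fold changes over PBS were 0.52 ± 0.62 with the Pdx1 gRNA and 0.53 ± 0.62 with the control gRNA (adjusted p = 0.580 and 0.544, edgeR). Without PBS replicates 2 and 3 they were -0.06 and -0.05.

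Jchain, whose product polymerizes IgM and IgA, averaged 2.19 ± 1.30 CPM in Pdx1 gRNA livers, 2.27 ± 0.89 in control gRNA livers and 1.95 ± 0.91 in PBS livers (SD, n = 4 each). The log2 fold changes over PBS were 0.16 ± 0.48 with the Pdx1 gRNA and 0.21 ± 0.47 with the control gRNA (adjusted p = 0.837 and 0.774, edgeR). Per kilobase of exon, Jchain stood at 0.0572 to 0.106 of the summed heavy chain level in Pdx1 gRNA livers, 0.0496 to 0.113 in control gRNA livers and 0.0928 to 0.105 in PBS livers.

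Igkc, the constant region of the kappa light chain that most mouse antibodies use, is 1 gene of 1 exon on chromosome 6. In CPM it lay below Ighm in all 4 PBS livers. It stood at 12.4, 10.3, 5.36 and 6.71 CPM in Pdx1 gRNA livers, at 7.65, 17.7, 8.90 and 5.71 CPM in control gRNA livers, and at 6.35, 1.81, 3.89 and 6.37 CPM in PBS livers. In each virus group 1 liver lay below the highest PBS liver. The log2 fold changes over PBS, 0.90 ± 0.43 with the Pdx1 gRNA and 1.10 ± 0.43 with the control gRNA, missed the threshold (adjusted p = 0.151 and 0.0672, edgeR). With the control gRNA the call depended on the setting: adjusted p was 0.0225 on unscaled library sizes, 0.0375 with DESeq2, 0.0481 without PBS replicate 1 and 0.0461 without control gRNA replicate 4, within a range of 0.0225 to 0.362 over 23 alternatives.

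The lambda genes on chromosome 16 were scarce. Iglc1 had 4 to 9 counts per library with the Pdx1 gRNA, 2 to 12 with the control gRNA and 1 to 6 with PBS, and failed the filter. Iglc2 had 7, 6, 1 and 6 counts in Pdx1 gRNA livers, 12, 20, 18 and 14 in control gRNA livers, and 19, 3, 1 and 7 in PBS livers. Its log2 fold change over PBS was -0.83 ± 0.62 with the Pdx1 gRNA and 0.46 ± 0.56 with the control gRNA (adjusted p = 0.357 and 0.566, edgeR). Iglc2 and Iglc3 have 96.2% identical coding sequence and share 7.65% of the 50-base windows of Iglc2, so counts between them are uncertain; Iglc2 also overlaps the joining segment Iglj2 in 38 of its 612 exon bases.

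Levels were set side by side per kilobase of exon, and the annotation models differ, since those of Ighg1, Ighg2b and Igha hold a long membrane-form 3′ end that those of Ighg2c and Ighg3 lack, which lowers their levels per kilobase. Igkc came first in every group, at 16.4 ± 6.1 CPM per kb with the Pdx1 gRNA, 18.8 ± 10.0 with the control gRNA and 8.66 ± 4.13 with PBS (SD, n = 4 each). Ighm followed, at 3.80 ± 1.37, 4.56 ± 2.29 and 5.87 ± 2.69 CPM per kb in the same groups. The ranges of Igkc and Ighm were apart in both virus groups and overlapped in PBS. Next in both virus groups was Ighg2c, at 2.34 ± 1.34 CPM per kb with the Pdx1 gRNA and 2.398 ± 1.299 with the control gRNA, whereas in PBS it stood at 0.294 ± 0.356, below Igha, Iglc2, Jchain and Iglc1 as well. From Ighm down, the ranges of neighbours in this order overlapped in all 3 groups.

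The makeup of the heavy chain reads shows the same rise as a share. It rests on the same counts of 2 genes taken for their calls above, so it is no separate support. Ighg2b and Ighg2c together took 184 of 533, 101 of 262, 35 of 149 and 90 of 386 heavy chain counts in Pdx1 gRNA livers, which is 34.5%, 38.5%, 23.5% and 23.3%. In control gRNA livers they took 197 of 518, 157 of 565, 168 of 511 and 45 of 250, which is 38.0%, 27.8%, 32.9% and 18.0%. In PBS livers they took 11 of 243, 2 of 72, 11 of 158 and 26 of 349, which is 4.53%, 2.78%, 6.96% and 7.45%. The lowest virus liver, control gRNA replicate 4, had a 95% Wilson interval of 13.7% to 23.2%, above the highest PBS share, 7.45%, whose interval was 5.13% to 10.7%; the intervals cover counting error only. This ordering held for the 2 PBS livers of female pattern, at 4.53% and 7.45%, as it did for the 2 of male pattern.

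Ighm took the opposite course as a share: 20.6% to 55.0% of heavy chain counts with the Pdx1 gRNA, 23.4% to 51.9% with the control gRNA and 58.3% to 85.4% with PBS. A share of a fixed total must fall where another rises, so this adds no separate result. Igha took 10.1% to 40.1% with the Pdx1 gRNA, 6.26% to 38.8% with the control gRNA and 6.33% to 31.9% with PBS. Per kilobase, the 4 IgG genes together made up 27.5% to 51.9% of the heavy chain level in Pdx1 gRNA livers, 26.1% to 49.6% in control gRNA livers and 7.40% to 12.5% in PBS livers. Igkc made up 89.9% to 94.4%, 87.6% to 91.5% and 82.6% to 89.7% of the level of the 3 light chain genes in the same groups.

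**Figure D2:**
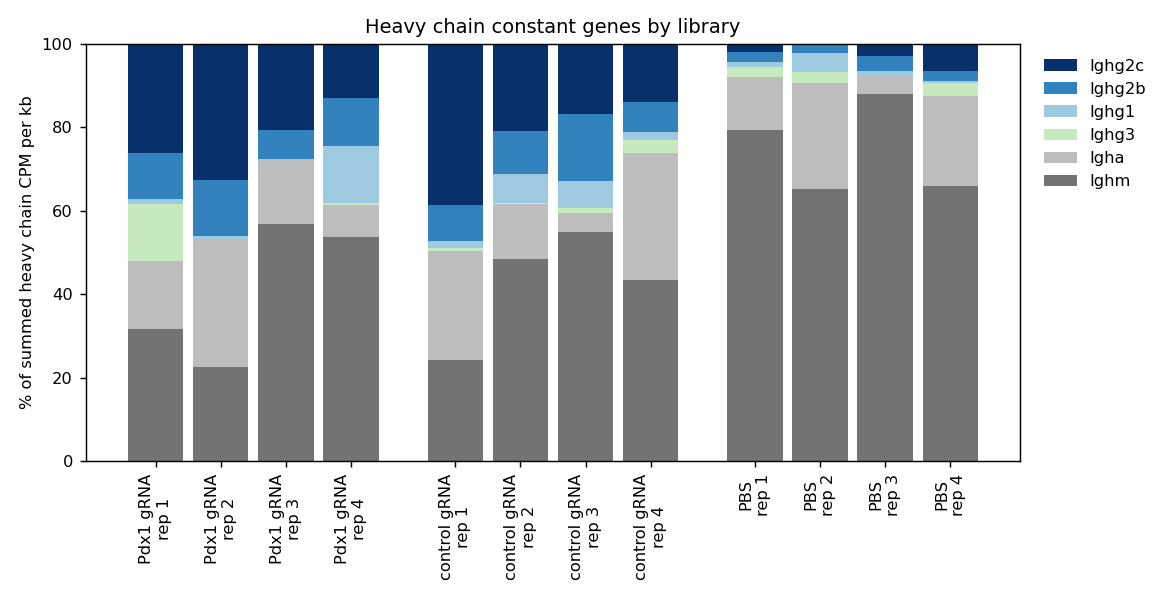
Share of each heavy chain constant gene in the summed heavy chain level (CPM per kb of exon, in %), 1 stacked bar per library, with Pdx1 gRNA, control gRNA and PBS livers from left to right. Ighg2b and Ighg2c together made up 24.4% to 46.0% in Pdx1 gRNA livers, 21.1% to 47.2% in control gRNA livers and 2.19% to 8.89% in PBS livers.

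Between the virus groups no member passed the test: 0 of 7 in the Pdx1 gRNA against the control gRNA, beside 0 of 15219 genes (0% called) by edgeR, with 1 of 7 members and 918 genes (6.03%) at an unadjusted p under 0.05. DESeq2 called 14 genes and limma-voom 0, none of them a member. Ighg2c differed by a log2 fold change of -0.04 ± 0.63, with a 95% interval of -1.27 to 1.19, and Ighg2b by -0.05 ± 0.48, with an interval of -0.99 to 0.89. Both intervals are wide for genes with so few counts. Iglc2 was the member at an unadjusted p of 0.0467, with a log2 fold change of -1.29 ± 0.59 and an adjusted p of 0.809 (edgeR); its 4 Pdx1 gRNA values, 0.0755 to 0.442 CPM, lay just below the control gRNA values, 0.448 to 1.04 CPM. Groups that do not overlap in this comparison were found for 3.17% of genes tested with the Pdx1 gRNA lower and 3.48% with it higher.

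Variable segments, which carry the antigen-binding site, were too thinly covered for tests. The files list 348 Ighv, Igkv and Iglv segments, and 0 passed the filter. Heavy chain variable segments had 16 to 66 counts per library over 13 to 28 segments with the Pdx1 gRNA, 20 to 58 over 15 to 28 with the control gRNA and 18 to 78 over 12 to 36 with PBS. Kappa segments had 22 to 121 counts over 18 to 45 segments, 54 to 106 over 21 to 36, and 18 to 121 over 15 to 42 in the same groups. A fragment that spans a variable and a constant gene was not assigned by the counting options in the file headers, so these counts miss the spliced junctions.

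Of the heavy chain segments with the most counts, Ighv1-80 had 5, 5 and 18 counts and Ighv1-26 had 9, 4 and 10 in the Pdx1 gRNA, control gRNA and PBS groups. Ighv14-3 had 22 counts, all in 1 control gRNA library. Among kappa segments, Igkv3-2 had 18 and 23 counts in the Pdx1 gRNA and control gRNA groups and 0 in PBS. Igkv6-32 had 7, 8 and 23 counts in the Pdx1 gRNA, control gRNA and PBS groups, all 23 of PBS in 1 library, and Igkv6-15 had 9, 16 and 11. The lambda segments Iglv1, Iglv3 and Iglv2 had 59, 34 and 10 counts over all libraries. The largest share held by 1 segment in a library ranged over 9.68% to 12.5% of heavy chain variable counts with the Pdx1 gRNA, 10.0% to 37.9% with the control gRNA and 11.1% to 23.1% with PBS.

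Few B cell genes were called against PBS. Of 19 listed, 18 were in the files and 16 were tested. With the Pdx1 gRNA 1 rose and 0 fell, and with the control gRNA 2 rose and 0 fell. Over all genes tested, 11.7% and 16.3% were called higher in these comparisons. The median log2 fold change of the list was -0.29 with the Pdx1 gRNA and 0.20 with the control gRNA, beside -0.06 and -0.01 over all genes tested. Cd79b, a signalling chain of the antigen receptor, had log2 fold changes of -0.24 ± 0.44 with the Pdx1 gRNA and 0.20 ± 0.43 with the control gRNA. Cd79a, its partner chain, averaged 2.03 ± 0.78, 2.38 ± 1.29 and 1.99 ± 1.52 CPM in Pdx1 gRNA, control gRNA and PBS livers (SD, n = 4 each), and Ms4a1, which encodes CD20, 0.619 ± 0.445, 0.790 ± 0.397 and 0.881 ± 0.672 CPM. None of these 3 was called in either comparison, and at such low levels a change could have gone uncalled.

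Among the genes that rose, Cd72, a B cell inhibitory receptor that macrophages also make, had a log2 fold change of 1.03 ± 0.30 with the control gRNA (adjusted p = 0.0213, edgeR), and the call was lost without any 1 of PBS replicates 2 and 3 and control gRNA replicates 2 and 3. Ly6d, a marker of early B cells that many epithelia also make, rose with both: it stood at 3.55 to 58.4 CPM with the Pdx1 gRNA, 48.9 to 66.7 with the control gRNA and 0.570 to 1.74 with PBS. Without Ly6d, the other 17 B cell genes summed to 19.9 to 31.5 CPM with the Pdx1 gRNA, 21.7 to 57.8 with the control gRNA and 14.8 to 42.1 with PBS, ranges that overlap. Without PBS replicates 2 and 3, Ly6d was the B cell gene called in each comparison.

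**Figure D3:**
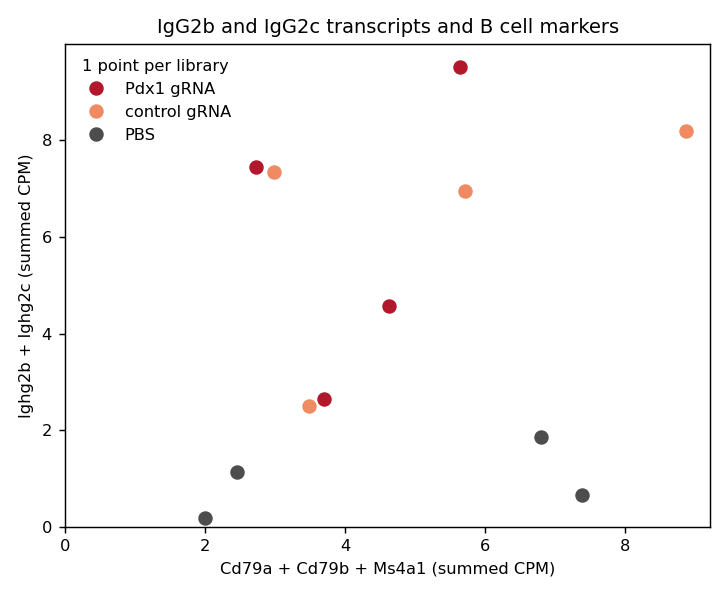
Summed level of Ighg2b and Ighg2c (y axis, CPM) against the summed level of the B cell markers Cd79a, Cd79b and Ms4a1 (x axis, CPM), 1 point per library. The markers span 2.73 to 5.64 CPM in Pdx1 gRNA livers, 2.98 to 8.87 in control gRNA livers and 2.00 to 7.37 in PBS livers, while Ighg2b and Ighg2c span 2.64 to 9.53 CPM with the Pdx1 gRNA, 2.49 to 8.19 with the control gRNA and 0.190 to 1.86 with PBS.

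Of 11 plasma cell and plasmablast genes tested, 2 were called with the control gRNA, both higher, and 0 with the Pdx1 gRNA. Over all genes tested, 16.3% and 11.7% were called higher in these comparisons. The median log2 fold changes of the list were -0.10 with the Pdx1 gRNA and -0.14 with the control gRNA. The 2 were Tnfrsf13b, which encodes the survival receptor TACI, at 1.36 ± 0.41, and Slamf7, which NK cells and macrophages also make, at 1.47 ± 0.45 (adjusted p = 0.0232 and 0.0242, edgeR); each call was lost without any 1 of PBS replicate 2, PBS replicate 3 and control gRNA replicate 3. Mzb1, a chaperone of antibody assembly, failed the filter, with 0.453 to 0.621 CPM in Pdx1 gRNA livers, 0.331 to 0.887 in control gRNA livers and 0.190 to 0.572 in PBS livers. No gene of this list was called without PBS replicates 2 and 3. Tnfrsf17, the BCMA receptor of plasma cells, reached at most 0.0755, 0.0746 and 0.0715 CPM in these groups. Sdc1, Txndc5, Xbp1 and Creld2 of the same list averaged 320, 240, 213 and 63.0 CPM in PBS livers. The list medians therefore do not single out plasma cells. Derl3, a factor of protein disposal in secretory cells, had 0.906 to 3.10 CPM with the Pdx1 gRNA, 0.448 to 2.14 with the control gRNA and 0.572 to 21.9 with PBS, the highest in 1 PBS liver, and was not called (adjusted p = 0.112 and 0.0643 with the Pdx1 and control gRNA, edgeR). It was called lower in both comparisons by DESeq2 and without PBS replicate 4, and with the control gRNA under a covariate for PBS replicates 2 and 3.

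**Figure D4:**
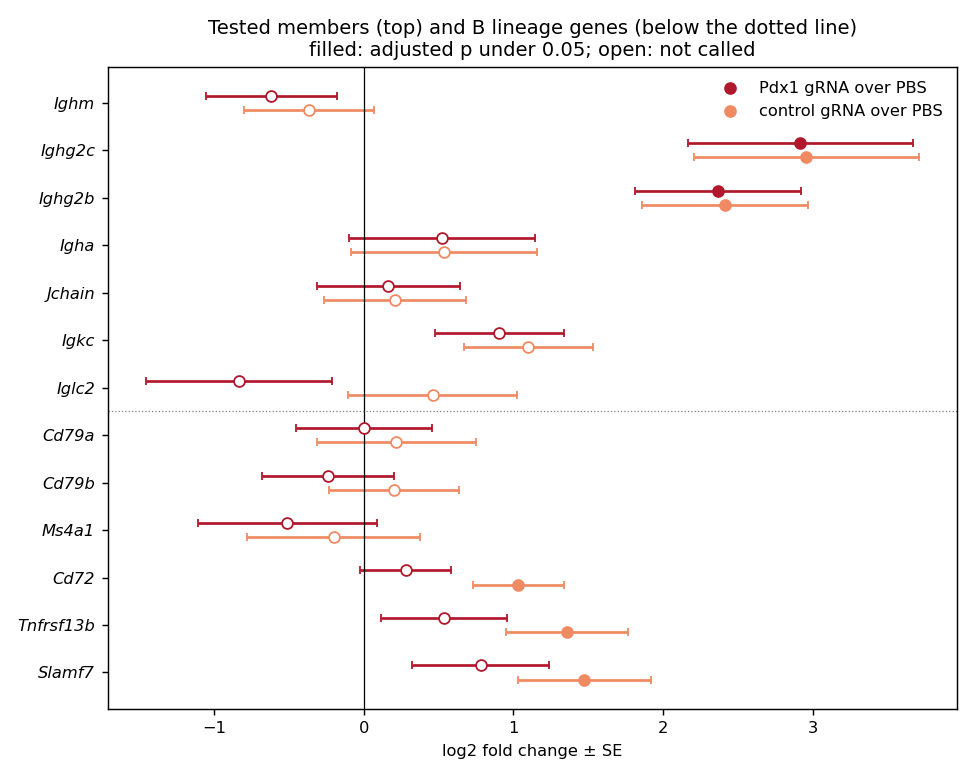
Log2 fold change ± SE (x axis) of the 7 tested members, above the dotted line, and of tested B lineage genes, below it, for Pdx1 gRNA over PBS and control gRNA over PBS, which share the PBS libraries; filled points are called at an adjusted p under 0.05. Ighg2c and Ighg2b lie between 2.37 and 2.96, while Cd79a, Cd79b and Ms4a1 lie between -0.51 and 0.22.

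Of the genes of class switching and the germinal centre, 2 of 9 tested rose in each comparison and 0 fell. Over all genes tested, 11.7% were called higher with the Pdx1 gRNA and 16.3% with the control gRNA. The list medians were 0.30 with the Pdx1 gRNA and 0.29 with the control gRNA. Icosl, which encodes the ligand of the T cell co-stimulator ICOS, rose with both, by 1.35 ± 0.41 with the Pdx1 gRNA and 2.00 ± 0.41 with the control gRNA (adjusted p = 0.0320 and 0.00359, edgeR). Ung, a uracil glycosylase of class switching and of general DNA repair, rose with the Pdx1 gRNA by 1.14 ± 0.34 (adjusted p = 0.0295, edgeR), and Cd40, the receptor for T cell help, with the control gRNA by 0.96 ± 0.34 (adjusted p = 0.0447, edgeR). Among the 12 fits that each left out 1 library, the calls of Icosl with the Pdx1 gRNA, Ung and Cd40 were kept in 7, 7 and 1. Without PBS replicates 2 and 3, 0 of the 9 genes were called in either comparison, with adjusted p for Icosl of 0.219 with the Pdx1 gRNA and 0.0536 with the control gRNA (edgeR).

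Of the cytokine genes that steer switching and B cell survival, 7 of 14 listed were tested: 0 rose and 1 fell with the control gRNA, and 0 were called with the Pdx1 gRNA. Over all genes tested, 11.7% were called higher and 10.4% lower with the Pdx1 gRNA, and 16.3% and 15.8% with the control gRNA. The medians were -0.38 with the Pdx1 gRNA and 0.28 with the control gRNA. Cxcl12, a chemokine that holds plasma cells in their niche and that liver endothelium makes, fell by 1.11 ± 0.28 on the log2 scale with the control gRNA (adjusted p = 0.00941, edgeR), and stood at -0.80 ± 0.27 with the Pdx1 gRNA (adjusted p = 0.0523, edgeR). Cxcl13, which draws B cells into follicles, stood at 0.906 to 2.33 CPM with the Pdx1 gRNA, 0.783 to 6.42 with the control gRNA and 0.512 to 4.58 with PBS.

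Both genes that carry antibody across liver cells, Pigr and Fcgrt, fell in virus livers. The 10 hepatocyte markers had median log2 fold changes over PBS of -0.80 with the Pdx1 gRNA and -1.12 with the control gRNA. Whether the falls of Pigr and Fcgrt were linked to those of hepatocyte markers was not tested. Pigr, the hepatocyte and bile duct receptor for polymeric IgA and IgM, stood at 666, 576, 703 and 153 CPM in Pdx1 gRNA livers, at 200.3, 534, 414 and 499 CPM in control gRNA livers, and at 1660.5, 2468, 2479 and 2234 CPM in PBS livers. Every PBS liver was above every virus liver by a wide margin. It fell by 2.08 ± 0.43 on the log2 scale with the Pdx1 gRNA and by 2.42 ± 0.43 with the control gRNA (adjusted p = 0.00578 and 0.00187, edgeR), and was called in all 23 alternatives of each comparison.

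Fcgrt, the neonatal Fc receptor, which returns IgG and albumin to the blood, stood at 150.2, 194, 178.5 and 109 CPM in Pdx1 gRNA livers, at 116, 171, 115 and 157 in control gRNA livers and at 247, 231, 253 and 219.7 in PBS livers. The groups do not overlap, and the log2 fold changes over PBS were -0.59 ± 0.20 with the Pdx1 gRNA and -0.77 ± 0.20 with the control gRNA (adjusted p = 0.0473 and 0.0113, edgeR). The call with the Pdx1 gRNA was kept in 4 of 12 fits that left out 1 library. Of the 9 receptor and transport genes tested, 0 rose and 2 fell with the Pdx1 gRNA. With the control gRNA 3 rose and 2 fell. Over all genes tested, 11.7% were called higher and 10.4% lower with the Pdx1 gRNA, and 16.3% and 15.8% with the control gRNA. The list medians were -0.26 with the Pdx1 gRNA and 0.53 with the control gRNA. Without PBS replicates 2 and 3, Pigr fell in both comparisons and no other gene of this list was called.

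The 3 that rose with the control gRNA were Fcer1g, the signalling chain shared by activating Fc receptors, at 1.41 ± 0.34; Fcgr1, the high-affinity IgG receptor, at 1.42 ± 0.43; and Lilrb4a, an inhibitory receptor of myeloid cells, at 0.91 ± 0.32 (adjusted p = 0.00829, 0.0237 and 0.0433, edgeR). With the Pdx1 gRNA their log2 fold changes were 0.28 ± 0.34, 0.20 ± 0.43 and 0.25 ± 0.32, none called, and the difference between the virus groups was not called for any of them. Fcgr1 lost its call without any 1 of PBS replicates 2 and 3 and control gRNA replicates 2 and 3, and Lilrb4a kept it in 5 of 12 such fits. Fcgr2b, the inhibitory IgG receptor of liver endothelium and B cells, averaged 29.3 ± 8.9, 33.6 ± 8.1 and 46.4 ± 17.6 CPM in Pdx1 gRNA, control gRNA and PBS livers (SD, n = 4 each) and was not called.

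**Figure D5:**
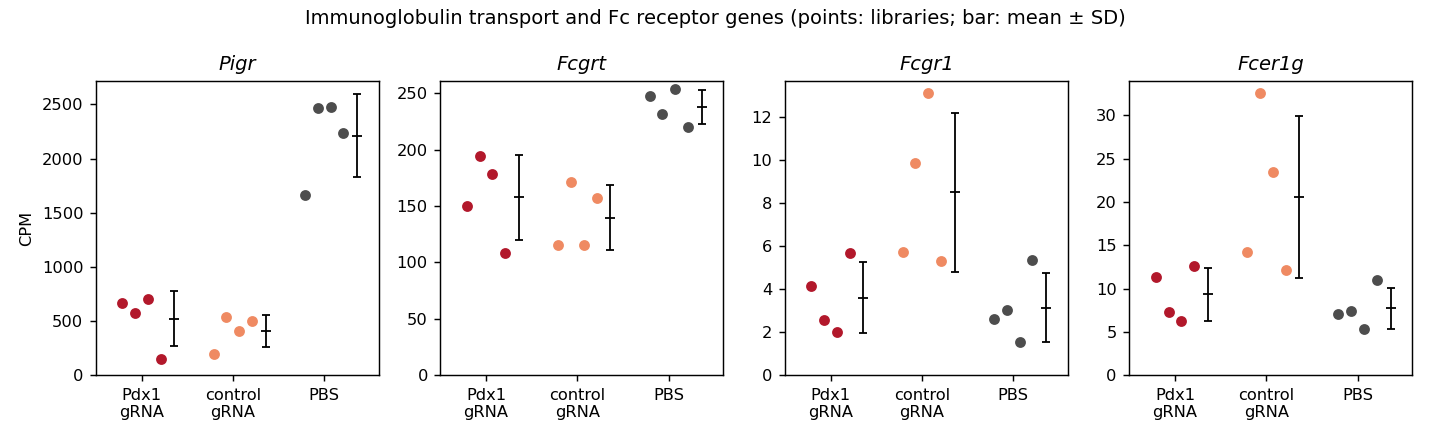
Level of Pigr, Fcgrt, Fcgr1 and Fcer1g (CPM, linear axes from 0) in every library, with Pdx1 gRNA, control gRNA and PBS livers from left to right; points are libraries and the bar beside them is the mean ± SD of 4. Pigr lies at 153 to 703 CPM with the Pdx1 gRNA and 200.3 to 534 with the control gRNA, below the 1660.5 to 2479 CPM of PBS.

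Markers of other cell types moved alongside and their part in these values was not tested. Over all genes tested, 11.7% were called higher and 10.4% lower with the Pdx1 gRNA, and 16.3% and 15.8% with the control gRNA. T cell markers were called in 0 of 11 tested with the Pdx1 gRNA and rose in 2 of 11 with the control gRNA, Cd8a at 1.89 ± 0.48 and Cd8b1 at 2.48 ± 0.84 on the log2 scale; their summed level was 5.97 to 16.2 CPM with the Pdx1 gRNA, 14.0 to 25.1 with the control gRNA and 7.70 to 14.3 with PBS, and Cd3e averaged 0.775 CPM with the Pdx1 gRNA, 1.35 with the control gRNA and 0.918 with PBS. Of 12 Kupffer cell and macrophage markers, 0 were called with the Pdx1 gRNA and 1, Cd68, rose with the control gRNA at 1.222 ± 0.37, while Clec4f averaged 91.0 CPM in Pdx1 gRNA, 130.5 in control gRNA and 105 in PBS livers. Neutrophil markers were called in 0 of 5 tested in both comparisons by edgeR. Without PBS replicates 2 and 3, 1 of 6 tested was called lower with the Pdx1 gRNA. Their summed level was 4.61 to 8.03 CPM with the Pdx1 gRNA, 12.6 to 18.9 with the control gRNA and 3.59 to 19.0 with PBS. Red cell and platelet genes, a sign of blood in the tissue, fell in 1 of 7 tested with the Pdx1 gRNA (Alas2) and 3 of 7 with the control gRNA (Alas2, Hbb-bs and Hbb-bt); they summed to 80.6 to 180.0 CPM, 57.1 to 212.6 CPM and 323 to 452 CPM in Pdx1 gRNA, control gRNA and PBS livers. Hepatocyte markers fell in 2 of 10 with the Pdx1 gRNA (Apob and Fgb) and 6 of 10 with the control gRNA, and Alb averaged 63273 CPM in Pdx1 gRNA, 44966 in control gRNA and 69141 in PBS livers.

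The genes most like the 10 members summed, by Pearson's r of log2 CPM over the 12 libraries, were Gbp2, Palb2, Irf1, Sgk3 and Cxcl9, at r of 0.891, 0.885, 0.874, 0.871 and 0.869. With group means removed r was 0.877, 0.933, 0.852, 0.837 and 0.856. Without the 2 libraries farthest from the median sum it was 0.790, 0.776, 0.566, 0.785 and 0.634. These are the top 5 among all genes tested that are no immunoglobulin segment, chosen for their r, and all points share the library sizes. The B cell markers Cd79a, Cd79b and Ms4a1 had r of 0.654, 0.691 and 0.460, and the T cell marker Cd3e had 0.694. With group means removed these were 0.634, 0.735 and 0.589 for the B cell markers and 0.798 for Cd3e. Clec4f, S100a8, Hbb-bs, Alb and Pigr had r of 0.283, 0.311, -0.016, -0.038 and -0.393. With group means removed the r of these genes were 0.29, 0.174, 0.431, 0.276 and 0.0075.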

How the data were processed

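Liver libraries of polyadenylated RNA were used as deposited: per the file headers, the authors' count tables are raw fragment counts per gene from featureCounts 1.4.6-p4 on GENCODE vM13 (mm10), paired and without strand, with no option to count multi-mapping fragments or fragments over several genes, so junctions of variable and constant genes and shared stretches are undercounted. Per the submitters' processing notes, Trimmomatic 0.32 and STAR 2.4.1a were used. Symbols matched 50376 of 50600 gene IDs. Counts were fitted in edgeR 4.0.16 (R 4.3.3) over 12 libraries by the robust quasi-likelihood test, with TMM, filterByExpr (minimum count 10; 15219 genes) and calls at a Benjamini-Hochberg adjusted p under 0.05; SE were taken from the F statistic, and the fit was tested on simulated data. DESeq2 1.42.0 and limma 3.58.1 were alternatives. Sequences came from GENCODE M21 transcripts (GRCm38). Besides the 10 genes, the text names from each list up to 4 tested genes of smallest p per comparison with PBS, fixed markers, the 3 variable segments per chain with most counts, and 5 genes by likeness. Some genes of the lists are not reported here. The members and lists were chosen with earlier results of these data known. The Wilson intervals of shares and the floors cover counting error only. The intervals of fold changes were taken from the SE of the fit, which also reflect variation among these libraries. They may not cover variation among litters or days.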

Additional observations from a re-analysis of the deposited data

Results flagged for a closer look

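In 7 of 132 groups of 4 libraries looked at, 1 library stood apart from the other 3 by Dixon's test at the 95% level, where chance alone gives about 1 in 20. Ighg1 was at 3.35 CPM in Pdx1 gRNA replicate 4, with the next at 0.518. Ighg3 was at 2.17 CPM in Pdx1 gRNA replicate 1, with the next at 0.0508. Tnfrsf17 was at 0.0755 CPM in Pdx1 gRNA replicate 3, which is 1 count, and at 0 in the others of that group. Hbb-bt was lowest in Pdx1 gRNA replicate 4, at 3.81 CPM, with the next at 9.66. PBS replicate 1 was the highest of its group for Derl3 at 21.9 CPM, with the next at 2.57, for Ung at 18.9 CPM, with the next at 9.22, and for S100a8 at 2.398 CPM, with the next at 0.358.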

How the results depend on the processing

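Of the 23 alternatives, those that ended calls of Ighg2b and Ighg2c removed or modelled PBS replicates 2 and 3. Without them the counts of members called were 0 in both comparisons with PBS; a covariate for them left 0 with the Pdx1 gRNA and 1 with the control gRNA (Ighg2b), at log2 fold changes of 2.23 for Ighg2b and 2.34 for Ighg2c with the Pdx1 gRNA and 2.38 for Ighg2c with the control gRNA. Over all genes, 2258 of 16170 were called without the pair for the control gRNA and 1277 for the Pdx1 gRNA, and with the covariate 2785 and 1795 of 15219, beside 4887 and 3370 with all libraries; without PBS replicate 1 alone the control gRNA had 6875 of 15444. The replicate numbers do not pair the libraries (3 of 12 same-number pairs correlated above 0.1); with a replicate block the number of members called stayed at 2, 2 and 0 and the call set of B cell and plasma cell genes at 4, 1 and 0 for the control gRNA against PBS, the Pdx1 gRNA against PBS and the Pdx1 gRNA against the control gRNA. Leaving out 1 library gave 1 to 6 B cell and plasma cell genes called against PBS for the control gRNA (1 without PBS replicate 2, PBS replicate 3 or control gRNA replicate 3, and 6 without PBS replicate 4) and 1 to 2 for the Pdx1 gRNA (2 without PBS replicate 4); without PBS replicates 2 and 3 the control gRNA gave 1, the covariate gave 2 (Ly6d and Derl3), and DESeq2 gave 6 with the control gRNA (adding Derl3 and Xbp1) and 2 with the Pdx1 gRNA (adding Derl3). Without those replicates no T cell, macrophage or class-switching gene was called against PBS. Called lower in that setting, besides Pigr, were 3 red cell and platelet genes, 1 hepatocyte marker and Cxcl12 with the control gRNA. With the Pdx1 gRNA it was 1 neutrophil marker. Members that never passed the test changed sign in some settings. Without PBS replicates 2 and 3, Igha was at -0.05 (control gRNA) and -0.06 (Pdx1 gRNA), Iglc2 at -0.17 (control gRNA) and Jchain at -0.16 and -0.20; with the covariate they were at -0.02, -0.04, -0.15, -0.13 and -0.18 in the same order. Leaving out 1 library moved Jchain over -0.04 to 0.52 with the control gRNA and -0.28 to 0.47 with the Pdx1 gRNA. Between the virus groups, leaving out 1 library moved Ighm over -0.45 to 0.05, Ighg2b over -0.31 to 0.22, Ighg2c over -0.40 to 0.29, Igha over -0.35 to 0.25 (0.13 with the replicate block), Igkc over -0.42 to 0.23 and Jchain over -0.49 to 0.21. The causes were not tested.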
